A study of Saccharomyces cerevisiae with 16 samples.

Results

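The AAD family of Saccharomyces cerevisiae is a set of genes named for similarity to the aryl-alcohol dehydrogenase of a wood-rotting fungus. Of the 5315 named genes measured on these arrays, 6 carry the family's symbols: AAD3, AAD4, AAD6, AAD10, AAD14 and AAD15. They were picked by symbol, with their log2 ratios over the 8 groups already known. The values below therefore describe these genes, and no call of a member is read as support for anything.

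Aryl-alcohol dehydrogenases belong to the aldo-keto reductases, enzymes that use NADPH to turn aldehydes and ketones into alcohols, or the reverse. In yeast the natural substrates of the Aad proteins are not settled, and the genes are near copies of each other that mostly lie close to chromosome ends. AAD4 and AAD6 are known to respond to oxidants through Yap1, the transcription factor of the yeast oxidative stress response. Mot1 is an ATPase of the Swi2/Snf2 class that takes the TATA-binding protein (TBP) off DNA, and so influences which promoters have TBP.

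Newly made RNA was measured in a Mot1-aa strain, in which Mot1 carries an FRB-yEGFP-3V5 tag, and in the parental WT-aa strain without that tag. Both strains carry the tor1-1 allele, a deletion of fpr1 and RPL13A fused to FKBP12, are otherwise marked MET15, his3-1, leu2, lys2 and ura3, and have the alpha mating type. Rapamycin joins FRB to FKBP12, so that the tagged protein leaves the nucleus with exported ribosomal proteins. How much Mot1 stayed in the nucleus was not analysed here. Cells in synthetic complete medium with 2% glucose were taken at 0, 10, 20 and 30 min of 7.5 µM rapamycin. They were labelled with 5 mM 4-thiouracil for the last 6 min before harvest, also at 0 min, where no rapamycin was given. Each strain and time had 2 independent cultures, giving 16 two-colour arrays, each set against the same pool of labelled RNA. That pool is given as made from WT-aa cultures without rapamycin, while the array titles name it as pooled from Mot1 and WT. Whether it held Mot1-aa RNA was not settled here.

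The unit is the log2 ratio of sample to reference signal, so 0 is the level of the pool and 1 would be a doubling. In culture 1 the sample carried Cy3 and in culture 2 it carried Cy5. The dye and the culture number can therefore not be told apart, and the fit holds 1 term for both. Each array was scaled so that its gene spots centred on 0, which takes out any change in total labelled RNA per cell. On these bulk cultures, fewer cells making an RNA and less of it per cell cannot be told apart. On the Mot1-aa 0 min array of culture 1 the median gene spot was 11.6 times its background in the sample channel, against 22.4 to 32.2 on the other 15. The 2 Mot1-aa 10 min arrays each got an array weight of 0.148, the lowest of the 16. Of the mating-type markers, the alpha-specific MF(ALPHA)1, MF(ALPHA)2 and STE3 gave 111 to 1117 times background in the sample channel. The a-specific MFA1, MFA2, BAR1 and STE2 gave 1.46 to 8.23 times background. MOT1 itself was at 15.3 to 120 times background on all arrays, with a depletion effect at 30 min of 0.84 (SE 0.79, limma adjusted p = 0.48). The tag leaves the gene in place, so this checks no label, and FPR1 was not analysed here.

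Every member gave a clear signal. The mean signal of the 2 spots of each lay above the 99th percentile of the quality control spots on all 16 arrays, and no spot was saturated. The lowest sample signal of each member came from the dim Mot1-aa 0 min array of culture 1, at 12.5 times background for AAD15 and up to 32.1 times for AAD3. On the other arrays the lowest was 23.2 times background, again for AAD15. Duplicate spots of a member differed on average by 0.033 to 0.046 on the log2 scale. The members are not alike in length in the R64 gene table. AAD14 (YNL331C) spans 1131 bases, AAD3 (YCR107W) 1092, AAD4 (YDL243C) 990, AAD10 (YJR155W) 867 and AAD15 (YOL165C) 432. AAD6 (YFL056C, 1127 bases) is listed there as a pseudogene. In that table AAD3 and AAD15 have 1 gene between them and the chromosome end, AAD4 and AAD10 have 5, AAD14 has 6 and AAD6 has 10. The probes' letters were not used here, and how far a probe of one member also binds the RNA of another was not tested.

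Across the time courses the members fell into 3 patterns. AAD10 was low before rapamycin and climbed in both strains, further in Mot1-aa. AAD4, AAD6 and AAD14 shared a pattern in which both strains ended away from where they began, upward in Mot1-aa and downward in WT-aa. AAD3 and AAD15 stayed within a narrow band, with the strains overlapping at every time. Over the 16 arrays the full span of values was 1.06 for AAD10, 1.17 for AAD6, 0.68 for AAD4, 0.63 for AAD14, 0.41 for AAD3 and 0.36 for AAD15.

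**Figure D1:**
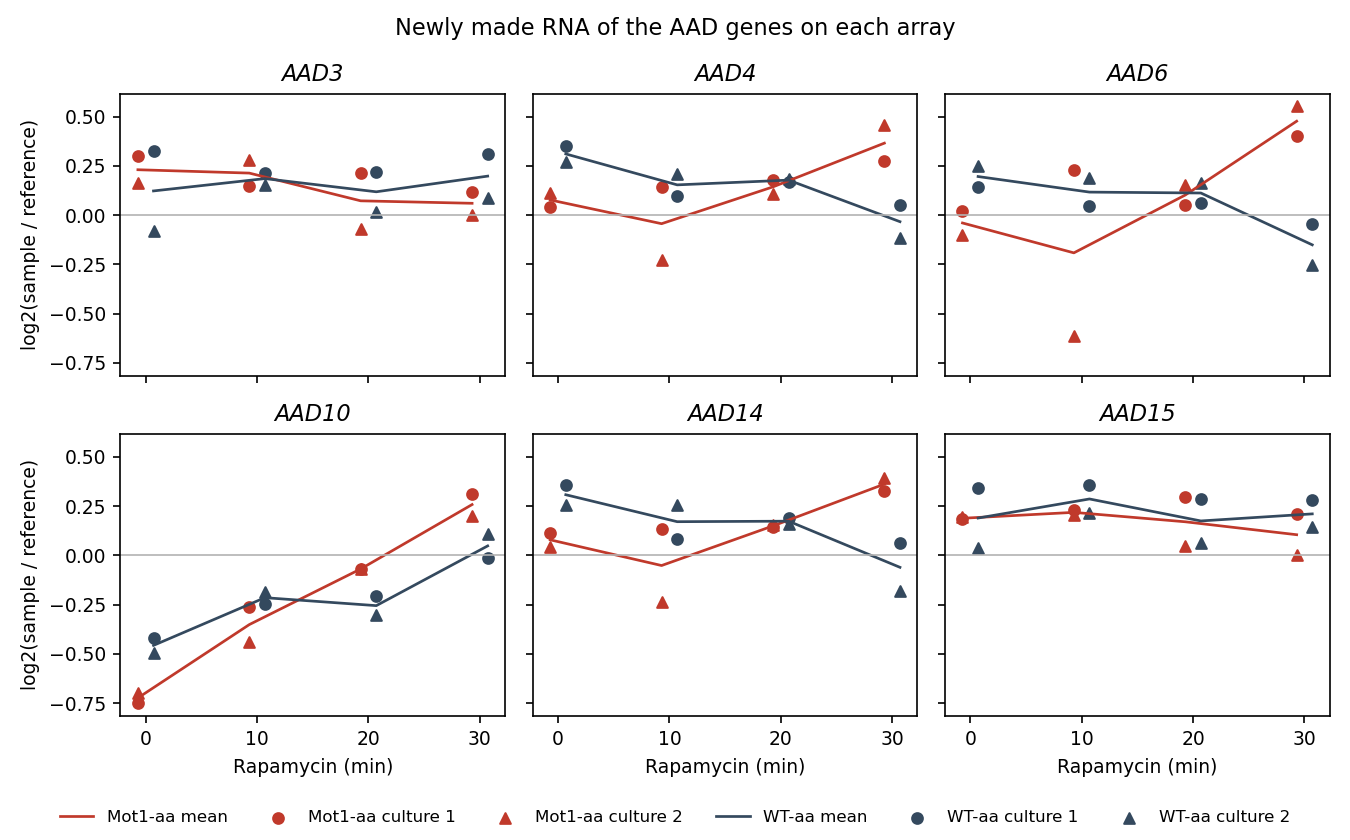
Log2 ratio of sample to reference for each AAD gene against minutes of rapamycin, with 1 point per array (circles culture 1, triangles culture 2), lines through group means, Mot1-aa in red and WT-aa in grey. AAD10 climbs in both strains, AAD4, AAD6 and AAD14 part at 30 min with Mot1-aa above WT-aa, and AAD3 and AAD15 overlap throughout.

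AAD10 encodes a putative aryl-alcohol dehydrogenase and moved in steps. In Mot1-aa its log2 ratios in cultures 1 and 2 were -0.75 and -0.70 at 0 min, -0.26 and -0.44 at 10 min, -0.07 and -0.07 at 20 min, and 0.31 and 0.20 at 30 min. In WT-aa they were -0.42 and -0.50 at 0 min, -0.25 and -0.18 at 10 min, -0.21 and -0.30 at 20 min, and -0.01 and 0.11 at 30 min. Each Mot1-aa time point lay above the one before it with no overlap, while in WT-aa the 10 and 20 min values overlapped. Mot1-aa was the lower strain at 0 and 10 min and the higher one at 20 and 30 min, without overlap at any of the 4 times. The order of its 8 group means ran from Mot1-aa 30 min at 0.26 ± 0.08, through WT-aa 30 min at 0.05 ± 0.08, down to WT-aa 0 min at -0.46 ± 0.05 and Mot1-aa 0 min at -0.72 ± 0.04 (SD, n = 2 each). In that order 4 of the 7 pairs of neighbouring groups did not overlap, the most of any member. How often the groups of other genes are apart like this was not counted, so these overlaps are no result about AAD10.

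The fits put sizes on this climb. All p-values for genes come from limma with Benjamini-Hochberg adjustment over the 5315 genes, and a gene counts as called at an adjusted p under 0.05. Against 0 min, AAD10 in Mot1-aa differed by 0.37 at 10 min (SE 0.08, adjusted p = 0.0311), by 0.65 at 20 min (SE 0.08, adjusted p = 0.000243) and by 0.98 at 30 min (SE 0.08, adjusted p = 8.16e-06), the last a 1.97-fold rise. Of all genes, 3.46%, 23.9% and 41.9% were called at those times, and AAD10 was the 1 member of 6 called at each. The WT-aa change of AAD10 at 30 min was 0.50 (SE 0.08, adjusted p = 0.0244), a 1.42-fold rise. This call was lost in 11 of 24 other settings, among them the fit without the replicate block (adjusted p = 0.0635) and single arrays left out (adjusted p up to 0.359). The Mot1-aa call at 10 min was also lost in 11 of 24, with an adjusted p up to 0.979 with array weights, and those at 20 and 30 min in none. Its WT-aa changes of 0.24 at 10 min and 0.20 at 20 min were not called (adjusted p = 0.437 and 0.905). In WT-aa 0.414%, 0.113% and 0.395% of all genes were called at 10, 20 and 30 min. AAD10 at 30 min was the only member among them. At an unadjusted p under 0.05 there were 1, 1 and 3 members, and 399, 243 and 461 of all genes.

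Before rapamycin, AAD10 was 0.27 lower in Mot1-aa than in WT-aa (SE 0.08, 95% interval -0.44 to -0.09), and this was not called (adjusted p = 0.134). It was called once either Mot1-aa 10 min array was left out (adjusted p = 0.0399). At 0 min 2.69% of all genes and none of the 6 members were called by limma, while 778 genes and 1 member had an unadjusted p under 0.05. AAD4, AAD6 and AAD14 had strain differences of -0.23, -0.24 and -0.23 at 0 min (adjusted p = 0.385, 0.667 and 0.389), and for all 3 the Mot1-aa values lay below those of WT-aa without overlap. AAD3 differed by 0.11 and AAD15 by -0.0011, both with overlapping values. For 4 of the 6 members, AAD10 included, the Mot1-aa values at 0 min lay below those of WT-aa without overlap. How many of all genes were apart in this way was not counted, so it is no result about the family.

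AAD4 is one of the members known to answer to oxidants. In Mot1-aa its log2 ratios in cultures 1 and 2 were 0.04 and 0.11 at 0 min, 0.14 and -0.23 at 10 min, 0.18 and 0.11 at 20 min, and 0.27 and 0.46 at 30 min. In WT-aa they were 0.35 and 0.27 at 0 min, 0.10 and 0.21 at 10 min, 0.17 and 0.19 at 20 min, and 0.05 and -0.12 at 30 min. The strains were apart at 0 min with Mot1-aa lower and apart at 30 min with Mot1-aa higher, and they overlapped in between.

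AAD14, the longest member, followed AAD4 closely. In Mot1-aa it gave 0.12 and 0.04 at 0 min, 0.14 and -0.24 at 10 min, 0.14 and 0.16 at 20 min, and 0.33 and 0.39 at 30 min. In WT-aa it gave 0.36 and 0.26 at 0 min, 0.08 and 0.26 at 10 min, 0.19 and 0.16 at 20 min, and 0.06 and -0.18 at 30 min. The strains overlapped at 10 min, Mot1-aa lay just below WT-aa at 20 min, and at 0 and 30 min they were apart as for AAD4.

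AAD6, the other member known to answer to oxidants, had the same shape with a wider span. In Mot1-aa it gave 0.02 and -0.10 at 0 min, 0.23 and -0.61 at 10 min, 0.05 and 0.15 at 20 min, and 0.40 and 0.55 at 30 min. In WT-aa it gave 0.14 and 0.25 at 0 min, 0.05 and 0.19 at 10 min, 0.06 and 0.16 at 20 min, and -0.05 and -0.25 at 30 min. The Mot1-aa 10 min cultures differed by 0.85, the widest gap of any member, with culture 2 the lower one, and the same culture was low for AAD4 and AAD14. For all 3 genes Mot1-aa 30 min had the highest mean and WT-aa 0 min the next highest. Those top 2 groups overlapped for AAD4 and AAD14 and were apart for AAD6.

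Neither strain's own change was called for these 3 genes in the main fit of all 16 arrays. At 30 min the Mot1-aa change was 0.29 for AAD4, 0.52 for AAD6 and 0.28 for AAD14 (adjusted p = 0.0654, 0.0628 and 0.0671). The WT-aa change at the same time was -0.34 for AAD4, -0.35 for AAD6 and -0.37 for AAD14 (adjusted p = 0.379, 0.664 and 0.355). All 6 changes had the same sign over the arrays of either culture number. With array weights the Mot1-aa changes at 30 min were called (limma adjusted p = 0.0235 for AAD4, 0.00315 for AAD6 and 0.0412 for AAD14). In the authors' deposited values those of AAD6 and AAD14 were called (adjusted p = 0.0407 and 0.0198), and that of AAD4 was not. Without either Mot1-aa 10 min array, the Mot1-aa changes of AAD4, AAD6 and AAD14 were called (adjusted p = 0.0115, 0.000646 and 0.0158).

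The depletion effect at a time is how far Mot1-aa had moved from its own 0 min level, less how far WT-aa had moved from its own. At 30 min it was 0.63 for AAD4 (SE 0.16, adjusted p = 0.0203, 1.55-fold), 0.65 for AAD14 (SE 0.16, adjusted p = 0.017, 1.57-fold) and 0.48 for AAD10 (SE 0.11, adjusted p = 0.0146, 1.39-fold). AAD6 had the largest estimate of the family and was not called (0.86, SE 0.29, adjusted p = 0.056, 95% interval 0.23 to 1.50). AAD3 was at -0.25 (95% interval -0.58 to 0.09, adjusted p = 0.274) and AAD15 at -0.10 (95% interval -0.36 to 0.15, adjusted p = 0.55). That makes 3 of 6 members called, all higher, where 21.1% of all genes were called. The members' median was 0.55 and the median of all genes 0.01.

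**Figure D2:**
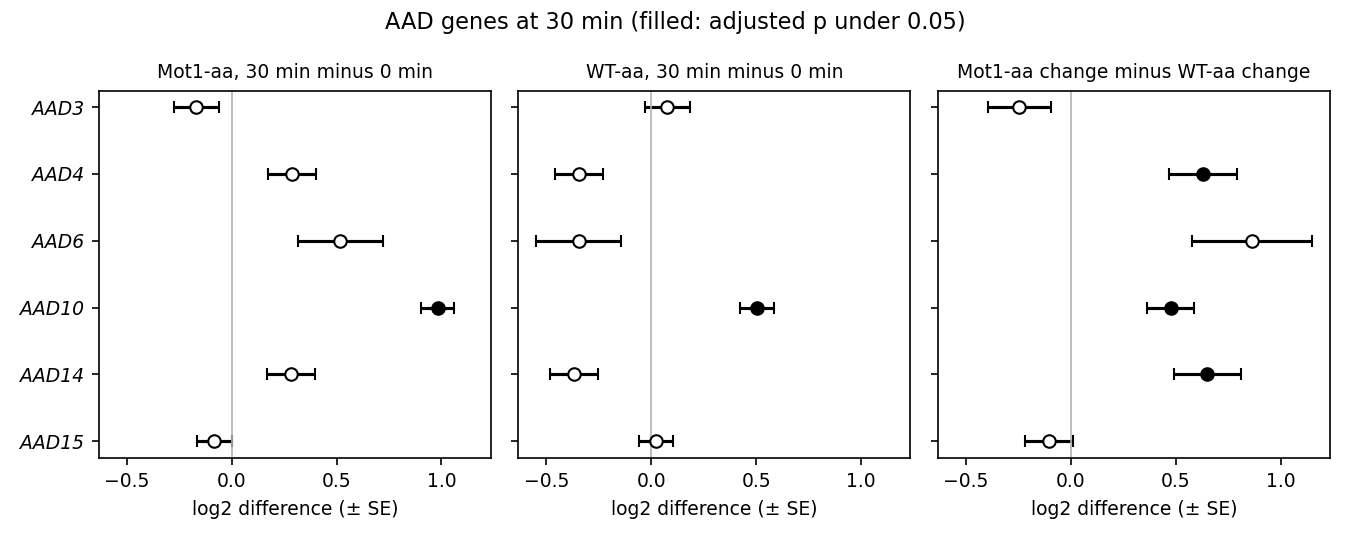
Log2 differences at 30 min with their standard errors for the 6 AAD genes: the Mot1-aa change from 0 min, the WT-aa change from 0 min, and the first minus the second, with filled points at an adjusted p under 0.05. AAD10 has positive changes in both strains, while for AAD4, AAD6 and AAD14 a positive Mot1-aa change and a negative WT-aa change add up to 0.63, 0.86 and 0.65.

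The depletion effect at 30 min was made up of different parts in these genes. For AAD10 it is a Mot1-aa change of 0.98 less a WT-aa change of 0.50. For AAD4 it is a Mot1-aa change of 0.29 less a WT-aa change of -0.34, and for AAD14 0.28 less -0.37. Each of these changes had an SE of 0.08 for AAD10 and of 0.11 for AAD4 and AAD14. Which strain's part is larger was not tested. Arrays of 1 culture number share a dye orientation and are not known to share a culture. Computed within each number, the depletion effect at 30 min was 0.53 for number 1 and 0.73 for number 2 for AAD4, 0.51 and 0.79 for AAD14, 0.57 and 1.16 for AAD6, and 0.66 and 0.30 for AAD10. It had 1 sign for both numbers for AAD3 too (-0.16 and -0.33), and opposite signs for AAD15 (0.09 and -0.30).

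These calls rest on few arrays. Without the dim Mot1-aa 0 min array of culture 1, none of the 3 was called: the estimates were 0.57 for AAD4, 0.65 for AAD14 and 0.43 for AAD10 (limma adjusted p = 0.0834, 0.0568 and 0.0616), and 640 of all genes were called. Leaving out the Mot1-aa or the WT-aa 30 min array of culture 2 left 1 member called, and without either Mot1-aa 10 min array there were 4, AAD6 included (adjusted p = 0.00058). Median centring left 2, without AAD10 (0.45, adjusted p = 0.0502). With the arrays scaled on external control spots in place of genes, none was called (adjusted p = 0.299 to 0.421 for the 3). The median control spot of an array was only 1.15 to 1.50 times background in the sample channel, against 11.6 to 32.2 for gene spots. That scaling moved the median of all genes to 0.27, left 4 genes called and turned the estimates of AAD3 and AAD15 to 0.07 and 0.16. Relative to that median AAD4 was at 0.67, AAD6 at 0.87, AAD10 at 0.51 and AAD14 at 0.68. AAD3 was at -0.20 and AAD15 at -0.12. That scaling moves all genes of an array by the same amount. Sizes relative to the median therefore do not depend on the control spots, and they are no check of these effects.

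Earlier in the time course less was seen. At 20 min the depletion effect was 0.45 for AAD10 (SE 0.11, adjusted p = 0.0357), the 1 member called where 8.09% of all genes were. It was 0.47 over the arrays of culture number 1 and 0.44 over those of number 2. This call was lost in 16 of 24 other settings, among them the fit without the replicate block (adjusted p = 0.111). At 20 min AAD4, AAD6 and AAD14 were at 0.20, 0.23 and 0.20, and AAD3 and AAD15 at -0.15 and -0.0032, none called. At 10 min limma called 0% of all genes and no member, while 225 genes and 0 members had an unadjusted p under 0.05.

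AAD3 and AAD15 had group means in a narrow band, from 0.06 to 0.23 and from 0.10 to 0.29, while the 2 cultures of a group differed by up to 0.41 and 0.30. In Mot1-aa, AAD3 was at 0.30 and 0.16 at 0 min, 0.15 and 0.28 at 10 min, 0.21 and -0.07 at 20 min, and 0.12 and 0.0034 at 30 min. In WT-aa it was at 0.33 and -0.08 at 0 min, 0.22 and 0.15 at 10 min, 0.22 and 0.02 at 20 min, and 0.31 and 0.09 at 30 min. The strains overlapped at all 4 times, and every group overlapped its neighbour in the order of means.

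AAD15, the shortest member, was similar. In Mot1-aa it was at 0.18 and 0.19 at 0 min, 0.23 and 0.21 at 10 min, 0.29 and 0.05 at 20 min, and 0.21 and -5.3e-05 at 30 min. In WT-aa it was at 0.34 and 0.04 at 0 min, 0.36 and 0.22 at 10 min, 0.29 and 0.06 at 20 min, and 0.28 and 0.14 at 30 min. Again the strains overlapped at every time and no neighbours in the order were apart. For both genes culture 2 was lower than culture 1 in 7 of the 8 groups, by 0.16 on average. For AAD4, AAD6, AAD10 and AAD14 culture 2 was lower in 4, 3, 5 and 5 groups.

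Set against each other over the 16 arrays, the members fell into the same 3 groups, which are the same values seen another way. Pearson's r was 0.97 between AAD4 and AAD14, 0.92 between AAD6 and AAD14, and 0.91 between AAD4 and AAD6. Among all other genes on the arrays, AAD14 was the one most alike to AAD4, and AAD4 the one most alike to AAD14. Over the 15 arrays without the Mot1-aa 10 min array of culture 2, these values were 0.95, 0.88 and 0.86. With group means and dye taken out of the 16 arrays, r was 0.90, 0.87 and 0.83. With group means and dye taken out and both Mot1-aa 10 min arrays left out, it was 0.78, 0.78 and 0.50 over 14 arrays. AAD10 had r between -0.28 and 0.37 with the other 5. AAD3 and AAD15 had r = 0.84, against 0.67 over the 8 group means. It was 0.89 with group means taken out and 0.74 with dye taken out as well. In the authors' deposited values it fell to 0.37. These are descriptions over arrays that share 1 reference pool and, within a culture number, 1 dye orientation. Signal that one gene's RNA gives on another's probe and joint transcription cannot be told apart here.

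**Figure D3:**
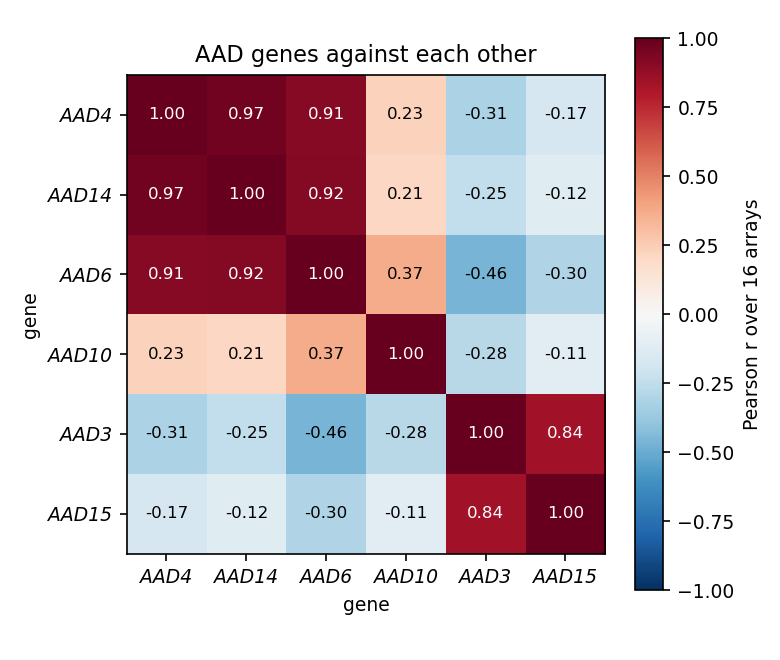
Pearson r over 16 arrays between each pair of AAD genes, from -1 (blue) to 1 (red), with the value printed in each cell. AAD4, AAD14 and AAD6 form a block at 0.91 to 0.97, AAD3 and AAD15 pair at 0.84, and AAD10 stands alone.

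Genes outside the family with the most similar pattern over the 8 group means were named by a fixed rule, 3 for each member, by Pearson's r over those 8 means. For AAD10 they included AMD2, a putative amidase (r = 0.97), and MEP2, an ammonium permease (0.97). AMD2 had a depletion effect at 30 min of 0.30 (SE 0.10, adjusted p = 0.0479), and that of MEP2 was 0.10, not called. ROT1, an ER chaperone, and TEX1, of the mRNA export complex TREX, appeared for all 3 of AAD4, AAD6 and AAD14, with r from 0.95 to 0.98. MSL1, a U2 snRNP protein, was the other one for AAD4 (0.95), YPL277C for AAD6 (0.97) and YNR061C for AAD14 (0.95). None of these 5 genes had a called depletion effect at 30 min. For AAD3 they were RRP14, SAP185 and SFL1 (0.94 to 0.97). The depletion effect at 30 min was -0.42 for RRP14, a ribosome assembly factor (SE 0.11, limma adjusted p = 0.0223). It was -0.70 for SAP185, a partner of the phosphatase Sit4 (SE 0.21, limma adjusted p = 0.0377). For AAD15 they were UPC2, GPI1 and MYO4 (0.88 to 0.92), none called. They were the closest of all genes outside the family over 8 points that share 1 reference pool, and no p is given.

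The genes next to the members on the chromosome were looked at in the same comparison. The 20 measured neighbours, up to 2 on each side of each member, had a median depletion effect at 30 min of 0.14. It was 0.55 for the members and 0.01 for all genes. Of all genes 21.1% were called, 721 higher and 399 lower. No neighbour was called higher and 1 was called lower, RPD3 beside AAD14, which encodes a histone deacetylase (-0.59, SE 0.11, adjusted p = 0.00441). YJR154W, directly beside AAD10, had the highest r with its member over the 8 group means (0.84) and the largest estimate among neighbours, with a wide error (1.29, SE 0.81, adjusted p = 0.284). ADH7, a cinnamyl alcohol dehydrogenase gene near AAD3, was at 0.18, and RDS1 between them at 0.83 (SE 0.64, adjusted p = 0.377). The vitamin B6 gene SNZ3 near AAD6 was at 0.27, and SNO2 near AAD14 at -0.16, neither called. The other 14 neighbours lay between -0.47 and 0.28, none called.

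Enzymes related to the Aad proteins were taken as lists. For this and the following lists, rose or fell means called higher or lower. Unless a strain is named, it refers to the depletion effect, the Mot1-aa change less the WT-aa change. A fall in WT-aa can also make that positive. Of 7 other aldo-keto reductases, 6 rose in the depletion effect at 30 min and none fell, where 21.1% of all genes were called. Their median was 0.68, against 0.55 for the AAD genes and 0.01 for all genes. YPR127W, a pyridoxal reductase gene, rose by 0.79 (SE 0.16, adjusted p = 0.00659), the arabinose dehydrogenase gene ARA1 by 0.75 (SE 0.14, adjusted p = 0.00476), and YJR096W by 0.74 (SE 0.18, adjusted p = 0.0167). GCY1, a glycerol dehydrogenase gene, rose by 0.68 (SE 0.10, adjusted p = 0.0016), and YPR1 was the 1 not called, at 0.20. In Mot1-aa itself 6 of the 7 rose between 0 and 30 min, where 41.9% of all genes were called, with a median change of 0.80, against a median of 0.04 in WT-aa. Their strain difference at 0 min had a median of 0.01, against -0.23 for the AAD genes. The count of 6 was 4 to 6 when single arrays were left out, and 0 with external control scaling.

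The 26 measured Yap1 targets moved less uniformly. At 30 min 5 rose in the depletion effect, none fell and 21 were not called, and the median was 0.32. The putative reductase gene YML131W rose by 0.84 (SE 0.21, adjusted p = 0.0187), the peroxidase gene GPX2 by 0.79 (SE 0.24, adjusted p = 0.0444), the efflux pump gene ATR1 by 0.64 (SE 0.14, adjusted p = 0.00971) and the vacuolar transporter gene YCF1 by 0.51 (SE 0.11, adjusted p = 0.0102). TRX2 at 0.16, AHP1 at -0.01 and OYE2 at -0.10, singled out after their values were seen as well-known Yap1 targets, were not called. The share of called Yap1 targets, 5 of 26, was near the 21.1% of all genes. The count ran from 0 without the WT-aa 30 min array of culture 2 to 12 without either Mot1-aa 10 min array, and was 0 with external control scaling.

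Of 17 other alcohol dehydrogenases and aldehyde reductases, GRE2 among them, which is also in the Yap1 list, 6 rose in the depletion effect at 30 min, 2 fell and 9 were not called, where 21.1% of all genes were called. The list's median was 0.36. The butanediol dehydrogenase genes BDH2 and BDH1 rose by 1.96 (SE 0.20, adjusted p = 0.000231) and 1.43 (SE 0.16, adjusted p = 0.000397). The aldehyde reductase gene ARI1 rose by 1.32 (SE 0.20, adjusted p = 0.00149) and its paralogue YGL039W by 0.75 (SE 0.20, adjusted p = 0.0275). IRC24, a benzil reductase gene, fell by 0.58 (SE 0.12, adjusted p = 0.00681) and XYL2, a xylitol dehydrogenase gene, by 0.32 (SE 0.10, adjusted p = 0.0445). The count of those that rose was 3 to 9 with single arrays left out and 1 with external control scaling.

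The last list holds 7 genes of aromatic amino acid breakdown, a pathway that makes aromatic aldehydes and alcohols such as 2-phenylethanol. At 30 min 4 rose in the depletion effect and none fell, where 21.1% of all genes were called, and the median was 0.45. They were named after their values were seen. ARO10, the phenylpyruvate decarboxylase gene, rose by 1.21 (SE 0.23, adjusted p = 0.0054), the aminotransferase gene ARO9 by 0.96 (SE 0.24, adjusted p = 0.0182), and the pyruvate decarboxylase genes PDC5 and PDC6 by 0.51 and 0.45 (adjusted p = 0.0268 and 0.0239). ARO8, ARO80 and PDC1 were at 0.29, -0.17 and 0.31, not called. The count of 4 was 1 to 5 with single arrays left out and 0 with external control scaling.

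**Figure D4:**
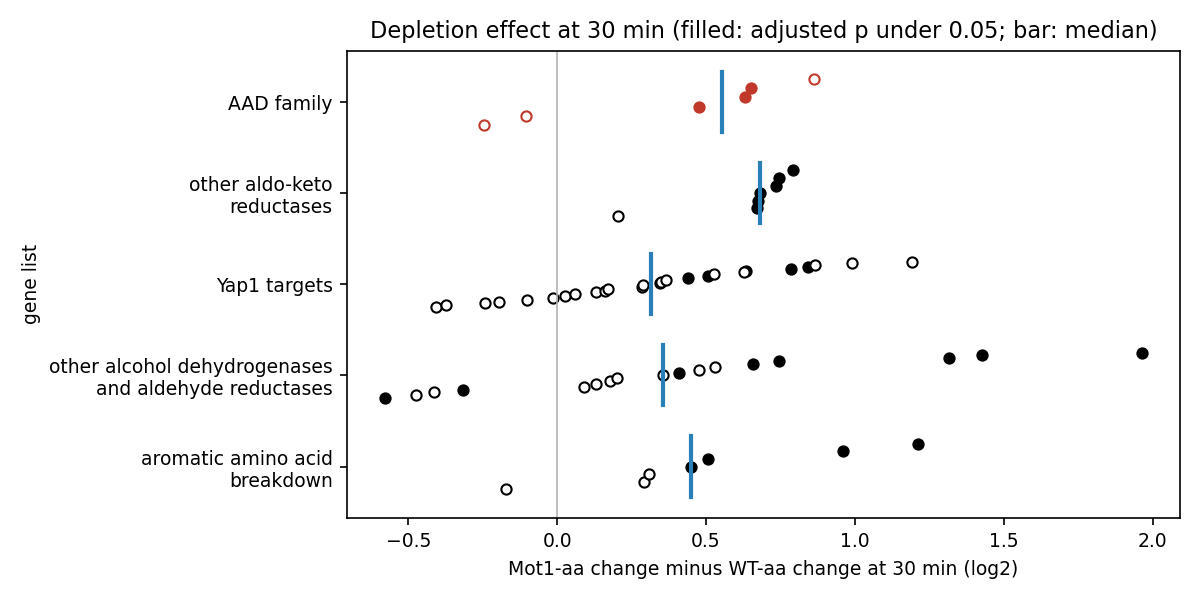
Depletion effect at 30 min (Mot1-aa change minus WT-aa change, log2) for each AAD gene (red) and each gene of 4 related lists (black), with filled points at an adjusted p under 0.05 and bars at list medians. AAD genes run from -0.25 to 0.86 with a median of 0.55, and the other aldo-keto reductases cluster from 0.20 to 0.79.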

How the data were processed

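Two-channel arrays of labelled RNA from 16 samples were read. Per the file headers, the scanner files the authors deposited give mean spot intensity and median background intensity for each channel, not normalized. A deposited table holds the authors' log2 values, with a normalization not given in the sources used here, and served as an alternative. The per-sample labels give the dyes, with the sample in Cy3 on every array of culture 1 and in Cy5 on every array of culture 2. The design text puts the first hybridization the other way round. The labels were followed, and the channel they call the reference was the more alike one between arrays. Array correlations with the deposited table ran from 0.796 to 0.978.

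From the intensities, background was corrected (limma 3.58.1 in R 4.3.3, normexp, offset 50), loess was fitted on the 12776 gene spots, ratios were turned to sample over reference, and duplicate spots were averaged. Of 6388 gene probes, 5326 had a name, of which 5266 matched the R64 gene table by symbol and 54 by synonym, and 6 kept the platform's name; together they are 5315 genes. The 1062 unnamed probes were left out. No filter on low values was used. One limma model held 8 groups and the dye, with Benjamini-Hochberg adjustment at 0.05. Array number limits the precision.

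The dye term is the same column as the replicate number. Deviations of same-numbered cultures correlated over 28 pairs of groups with a median r of 0.62 (-0.36 to 0.78), and 25 pairs exceeded 0.1. As the same number marks the same dye orientation, this is no proof of shared cultures.

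The members, the lists and the comparisons were chosen with earlier results of these data known. Named are all members, for each the 3 genes with the highest r over group means, up to 2 measured neighbours on each side, and from the lists of aldo-keto reductases, Yap1 targets and alcohol dehydrogenases up to 4 called genes of largest size, plus any a result turns on. Of the Yap1 list 26 of 27 genes, and of the alcohol dehydrogenase list 17 of 18, were measured. Probe, promoter and protein sequences were not analysed here. Neighbours that no statement turns on are given as a range, and one gene of the likeness rule is not reported here.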

Additional observations from a re-analysis of the deposited data

Results flagged for a closer look

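The following differences between the strains' time courses were called by the limma interaction of strain and time with Benjamini-Hochberg adjustment. The members were picked with these values known, so the calls are a description. At 20 and 30 min 8.09% and 21.1% of all genes were called. The depletion effect at 30 min was 0.63 for AAD4 (adjusted p = 0.0203), 0.65 for AAD14 (adjusted p = 0.017) and 0.48 for AAD10 (adjusted p = 0.0146). The depletion effect of AAD10 at 20 min was 0.45 (adjusted p = 0.0357). That call was lost without the replicate block (limma adjusted p = 0.111), and the 30 min call of AAD10 with median centring (adjusted p = 0.0502). External control scaling lost all of these calls. All 4 differences had the same sign over the arrays of either culture number, which are the arrays of the fit. At 0 min the Mot1-aa means of AAD4, AAD10 and AAD14 stood below the WT-aa means, with log2 differences of -0.27 to -0.23, and how much of the effect starts there was not tested.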

How the results depend on the processing

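Over 24 other settings, 51 of 1440 member results lost a call, 19 gained one, 0 reversed a called sign and 45 that were not called changed sign by more than the spread between replicates. The other 1325 kept their side of the threshold, some with large moves, such as the strain difference of AAD4 at 0 min with external control scaling (-0.91 against -0.23). The Mot1-aa changes of AAD10 at 20 and 30 min stayed called in all 24.

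The dye term is also the replicate block. With no replicate block the members called were 0 at 20 min and 3 at 30 min in the depletion effect, 0 in the Mot1-aa change at 10 min and 0 in the WT-aa change at 30 min, against 1, 3, 1 and 1. Of all genes 55 were then called at 0 min, 86 and 463 in the depletion effect at 20 and 30 min, 44, 689 and 1472 in Mot1-aa and 9, 3 and 9 in WT-aa, against 143, 430 and 1120, 184, 1270 and 2225, and 22, 6 and 21. External control scaling rests on spots at a median of 1.15 to 1.50 times background in the sample channel. It gave 0 members in the depletion effect at 20 and 30 min, 0 in the Mot1-aa change at 10 min and 0 in the WT-aa change at 30 min. It called 4, 0, 4, 5, 616, 786, 0, 0 and 0 of all genes in that order of comparisons. Of its 786, 784 were higher (99.7%), as were all 4 at 30 min, against 54.6% and 64.4%. Median centring gave 0 members in the depletion effect at 20 min and 0 in the WT-aa change at 30 min, and 244, 696, 120, 7 and 10 genes in the depletion effect at 20 and 30 min, Mot1-aa at 10 min and WT-aa at 10 and 30 min. The deposited table gave 0 members in the depletion effect at 20 min and 3 in the Mot1-aa change at 30 min, and 11 genes in WT-aa at 20 min. Array weights gave 0 in the Mot1-aa change at 10 min and 4 at 30 min, and 709 genes in the depletion effect at 20 min, 2 in Mot1-aa at 10 min, and 68 and 38 in WT-aa at 10 and 20 min. The cause of these shifts was not tested. The random block of strain and culture had an estimated correlation of -0.07.

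With single arrays left out, members called ran from 0 to 1 for the strain difference at 0 min, 0 to 1 and 0 to 4 for the depletion effect at 20 and 30 min, 0 to 2 and 1 to 4 for Mot1-aa at 10 and 30 min, and 0 to 1 for WT-aa at 30 min. Both highest counts at 30 min came without a Mot1-aa 10 min array, which left 2008 genes called in the depletion effect. A filter at the 99th percentile of the quality control spots kept 5026 genes and all 6 members.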
